A study of Mus musculus with 6 samples.

Results

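Toll-like receptors and the receptors for interleukin-1 carry the same cytoplasmic fold, the TIR domain, and pass their signal through a short chain of shared proteins. TIR adaptors bind the activated receptor: Myd88 serves nearly all of these receptors and is brought to the membrane by Tirap, whereas Ticam1 (TRIF) serves Tlr3 and, bridged by Ticam2 (TRAM), Tlr4. Myd88 then assembles with the kinases Irak4, Irak1 and Irak2, which engage the ubiquitin ligase Traf6 upstream of NF-κB and MAP kinases, while Irak3 (IRAK-M) and the receptor-like protein Sigirr act as brakes. Macrophages use this chain to detect bacterial lipopolysaccharide, lipoproteins and nucleic acids. The 10 genes examined here, Myd88, Tirap, Ticam1, Ticam2, Sigirr, Irak1, Irak2, Irak3, Irak4 and Traf6, were taken by symbol from a list of this chain, a rule that uses no measured value, out of 25124 gene symbols in the deposited table. The list itself was chosen with earlier results of these data known.

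RNA from RAW264.7 cells, a macrophage-like mouse line derived from a tumour induced by Abelson leukaemia virus, was sequenced in 3 libraries labelled E4BP4 knockout and 3 libraries labelled control. E4BP4 is the product of Nfil3, a bZIP repressor that binds D-box elements. Neither group received a treatment, so every value describes cells without added Toll-like receptor ligand. The sources used here do not tell how E4BP4 was disrupted, how many clones were used or whether the replicates were grown separately, so p-values measure variation among these 6 libraries alone, and it may be technical. Levels are TPM values made by the authors, that is, reads per transcript length scaled to each library.

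Nfil3 itself, the targeted gene, measured 105, 104 and 99.8 TPM under the knockout label and 29.5, 29.9 and 31.0 TPM in the controls. It was thus 3.41-fold higher under the knockout label, against what loss of the transcript would give. A gene-level value does not tell whether the coding sequence was edited, so the groups are called by their labels and every direction below rests on them. Whole reads recovered from the TPM values came to 18.4 to 19.9 M reads in the libraries labelled knockout and 15.6 to 18.1 M in the controls. All 10 macrophage markers examined were present, although Adgre1 (F4/80) was low, at 1.31 to 1.76 TPM under the knockout label and 2.15 to 3.08 TPM in the controls. The summed level of the 10 was 4317 to 4463 TPM under the knockout label and 3154 to 3412 TPM in the controls, with 3 of them higher, 5 lower and 2 not called, and its part in the results was not tested. Lyz2, at 2167 to 2265 TPM under the knockout label and 1017 to 1159 TPM in the controls, made up that difference: the other 9 summed to 2150 to 2198 TPM under the knockout label and 2137 to 2253 TPM in the controls, and these ranges overlapped. That sum joins markers that moved in opposite directions. Under the knockout label Cd14 was higher (837 to 876 TPM, controls 634 to 644 TPM). Csf1r (153 to 167 TPM, controls 240 to 256 TPM) and Cd68 (437 to 474 TPM, controls 525 to 617 TPM) were lower. Among all genes tested 26.7% were called higher and 23.4% lower. The highest value of any of 20 fibroblast, epithelial, lymphocyte and endothelial markers was 0.922 TPM. Of 5 neutrophil markers, S100a8 reached 5.03 to 6.19 TPM under the knockout label and 4.43 to 5.85 TPM in the controls, while Mpo and S100a9 were listed at 0 in all 6 libraries.

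The comparison asked how the resting levels of the adaptor and kinase transcripts differed between the labelled groups. All 10 genes passed the filter on low values (at least 1 TPM in at least 3 libraries). In limma on log2(TPM + 1), with adjustment over all 11257 genes tested, 3 of the 10 were higher in the libraries labelled knockout (Ticam2, Traf6 and Irak2), 5 were lower (Sigirr, Myd88, Ticam1, Tirap and Irak3) and 2 did not pass (Irak1 and Irak4). Over all genes tested 50.1% passed, 26.7% upward and 23.4% downward, so a count of 8 called genes lies in a comparison where calls were common. The TPM values of the 2 groups did not overlap for 9 of the 10 genes, all but Irak1, against 58.5% of all genes tested. Only Sigirr both passed and changed by at least 1 on the log2 scale, as did 2.25% of all genes tested. The median log2 fold change of the 10 genes was −0.15, against 0.02 for all genes tested. The authors' deposited table gave 7 of the 10 an adjusted p under 0.05, against 45.9% of the tested genes with a fold change there. In a bulk sample fewer cells carrying a transcript and less of it per cell cannot be told apart.

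**Figure D1:**
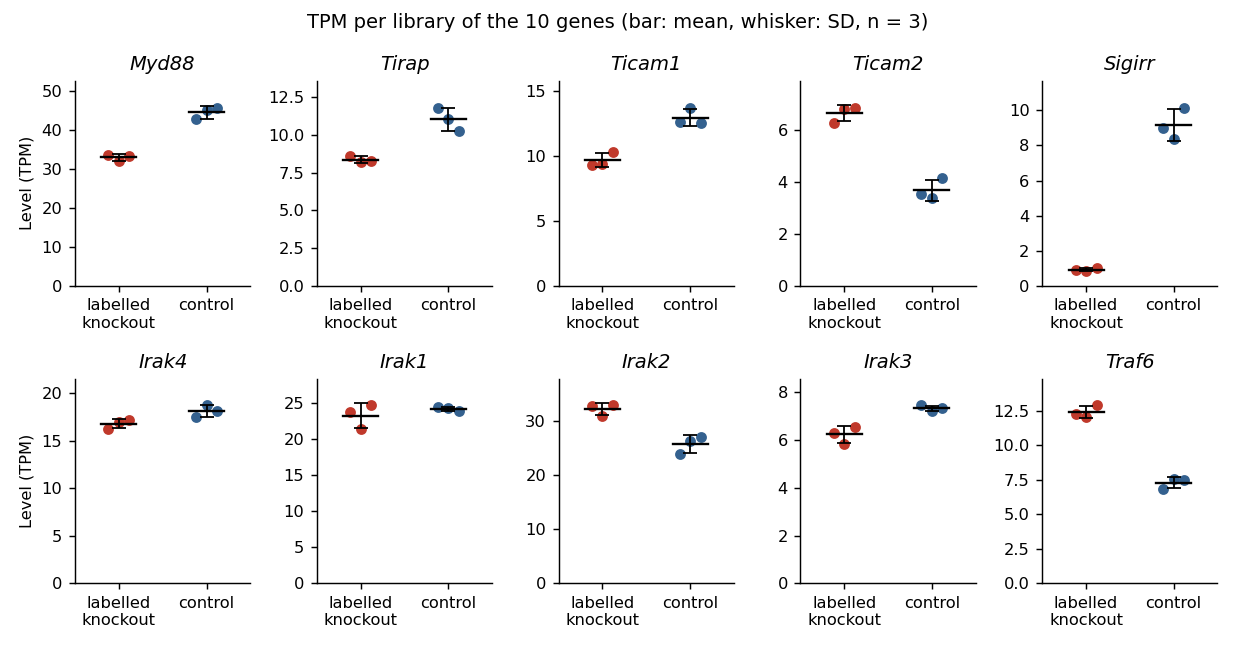
TPM of each gene (vertical axis, from 0) in the 3 libraries labelled knockout (left) and the 3 controls (right), with mean and SD. Sigirr lies between 0.851 and 0.994 TPM under the knockout label, below all controls, while Ticam2 and Traf6 lie above all controls and the Irak1 groups overlap.

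Sigirr, a single-immunoglobulin member of the interleukin-1 receptor family that restrains signalling through Myd88, was lower by the widest margin of the 10. Its level was 0.888, 0.851 and 0.994 TPM under the knockout label, against 8.98, 8.34 and 10.2 TPM in the controls. Every library under the knockout label was thus far below every control, by 10.1-fold on the means (0.911 ± 0.0742 and 9.16 ± 0.919 TPM, SD, n = 3 each). Its log2 fold change was −2.41 (SE 0.0868, limma adjusted p = 5.96e-08), the seventh lowest of all genes tested. The levels under the knockout label rested on 22, 23 and 26 recovered reads, and those of the controls on 227, 203 and 216 reads. The pseudocount of 1 understates the change at this depth: the value was −3.19 with a pseudocount of 0.1 and −3.31 with limma-voom on the recovered reads. In the second table the stabilized log2 values of the authors, which draw low genes together, averaged 6.13 under the knockout label and 7.26 in the controls, a difference of −1.13, whereas the fold change in the authors' deposited table was −3.38 on the log2 scale. Among all genes tested, 1.23% had a lower mean than Sigirr under the knockout label and 34.1% had one in the controls. Sigirr lay under 1 TPM in all 3 libraries labelled knockout and passed the filter on low values through the controls alone. That filter removes genes low in both groups, so the low place of Sigirr under the knockout label follows partly from it. The transcript in the deposited table, NM_001355055, lies at chr7:141091175-141100546 (mm10, minus strand) and has 10 exons in GENCODE M21, which annotates 8 transcripts for the gene; gene-level values do not separate them.

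Myd88, the adaptor shared by nearly all of these receptors, had the highest mean of the 10 in both groups and fell under the knockout label. It lies at chr9:119335934-119340018 (minus strand, 6 exons) and measured 33.6, 31.9 and 33.2 TPM there and 42.6, 45.1 and 45.6 TPM in the controls. No library of one group reached the range of the other. The means were 32.9 ± 0.882 and 44.4 ± 1.58 TPM (SD, n = 3 each), with a log2 fold change of −0.42 (SE 0.0431, limma adjusted p = 3.92e-05). Tirap (chr9:35184391-35199905, minus strand, 7 exons), which tethers Myd88 to membrane phosphoinositides, measured 8.61, 8.18 and 8.25 TPM under the knockout label and 11.8, 11.03 and 10.2 TPM in the controls. These groups were also apart (log2 fold change −0.36, limma adjusted p = 0.00102). Ticam1 (chr17:56269462-56276767, minus strand, 2 exons), the TRIF adaptor that leads to interferon-β and NF-κB, measured 9.34, 9.40 and 10.3 TPM under the knockout label and 12.7, 13.7 and 12.5 TPM in the controls. It too fell without overlap (log2 fold change −0.39, limma adjusted p = 0.000561).

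Ticam2 (chr18:46558231-46574533, minus strand, 3 exons), which couples Tlr4 to Ticam1 from endosomes, moved in the direction opposite to the other 3 adaptors. Its level was 6.29, 6.82 and 6.86 TPM under the knockout label and 3.53, 3.38 and 4.15 TPM in the controls. All 3 libraries labelled knockout were above the highest control, and the ratio of means was 1.81, the highest of the 10 (log2 fold change 0.71, SE 0.0795, limma adjusted p = 6.94e-05). Ticam2 was the least abundant of the 10 in the controls, from 167 to 181 recovered reads per library there and 316 to 374 under the knockout label. Tmed7, the gene beside it on chromosome 18, whose GENCODE span overlaps that of Ticam2 on the same strand, measured 78.5 ± 3.25 and 74.0 ± 3.34 TPM and did not pass (log2 fold change 0.08, limma adjusted p = 0.157).

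Of the IRAK genes, Irak2 rose, Irak3 fell by little, and Irak1 and Irak4 did not pass. Irak2 (chr6:113638467-113695027, plus strand, 12 exons), a kinase-like protein that sustains late Myd88 signalling in mouse macrophages, measured 32.6, 30.9 and 32.8 TPM under the knockout label and 23.8, 26.3 and 26.97 TPM in the controls. The groups did not overlap (ratio of means 1.25, log2 fold change 0.31, SE 0.0540, limma adjusted p = 0.00107). Irak3 (chr10:120141648-120202130, minus strand, 12 exons), the inhibitory family member found mainly in monocytes and macrophages, measured 6.30, 5.82 and 6.54 TPM under the knockout label and 7.43, 7.22 and 7.31 TPM in the controls. Its groups were apart by less than 1 TPM (log2 fold change −0.21, limma adjusted p = 0.0205), and the limma call was lost when labelled-knockout replicate 2 (adjusted p = 0.0769) or control replicate 3 (0.0522) was left out, or with no filter on low values (0.0515). The authors' deposited table gave Irak3 an adjusted p of 0.0743.

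Irak4 (chr15:94543660-94568316, plus strand, 12 exons), the kinase that acts first in the Myd88 complex, measured 16.2, 16.9 and 17.2 TPM under the knockout label and 17.5, 18.7 and 18.2 TPM in the controls. The groups did not overlap but lay close together (log2 fold change −0.10, 95% interval −0.21 to 0.01, limma adjusted p = 0.103), and the value passed with upper-quartile scaling (adjusted p = 0.0371). Irak1 (chrX:74013914-74023918, minus strand, 14 exons), the kinase recruited next, measured 23.7, 21.4 and 24.6 TPM under the knockout label and 24.5, 24.3 and 23.9 TPM in the controls. These ranges overlapped, with both the lowest and the highest library under the knockout label (log2 fold change −0.06, 95% interval −0.18 to 0.07, limma adjusted p = 0.404). The microRNA genes Mir718 and Mir5132 lie within the Irak1 locus on the same strand, and neither exceeded 3.77 TPM in a library.

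Traf6, the ubiquitin ligase on which the Myd88 and IRAK complex converges, rose. It lies at chr2:101678420-101701668 (plus strand, 8 exons), and its level was 12.2, 12.1 and 12.9 TPM under the knockout label and 6.81, 7.53 and 7.52 TPM in the controls. Every library labelled knockout stood well above every control, averaging 12.4 ± 0.429 and 7.29 ± 0.409 TPM (SD, n = 3 each). The means stood at a ratio of 1.70, with a log2 fold change of 0.69 (SE 0.0589, limma adjusted p = 1.24e-05). It rested on 1126 to 1253 recovered reads per library under the knockout label and 595 to 682 in the controls. The authors' deposited table gave 0.76 on the log2 scale.

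**Figure D2:**
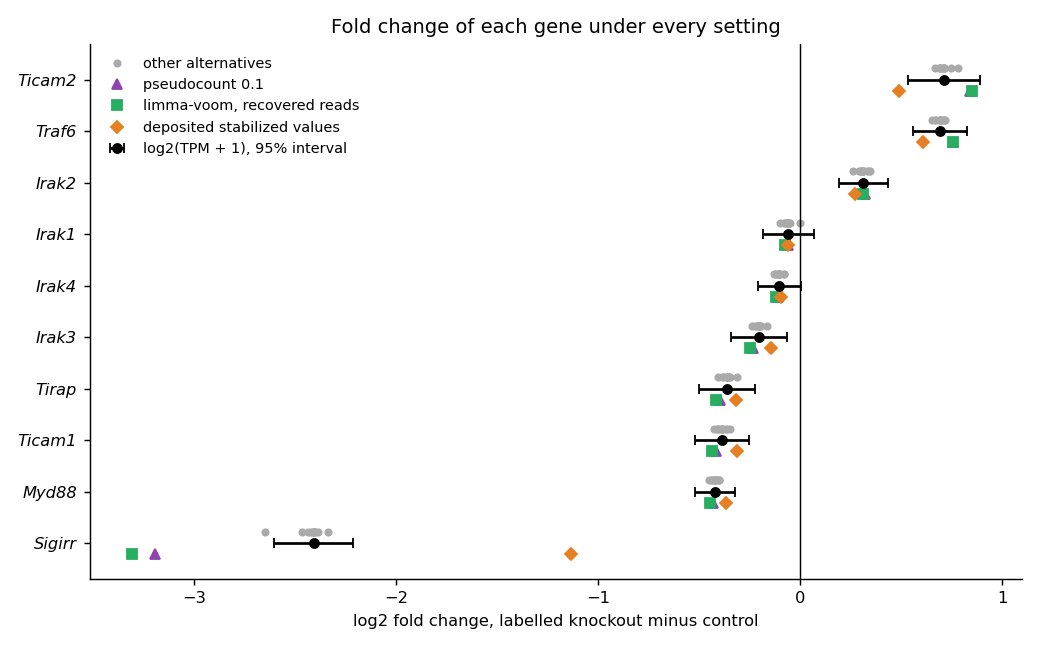
log2 fold change (horizontal axis, labelled knockout minus control) of each gene in limma on log2(TPM + 1) with its 95% interval, and under the 14 alternative settings. All settings keep the sign of every gene, and Sigirr spans −3.31 to −1.13.

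Levels are set per transcript length in TPM, so the genes can also be ordered against each other within a group, with the limit that the authors used 1 transcript per gene (for Sigirr 1606 bases in the TPM table and 1971 bases in the second table). Under the knockout label the order from high to low was Myd88, Irak2, Irak1, Irak4, Traf6, Ticam1, Tirap, Ticam2, Irak3 and Sigirr. In the controls it was Myd88, Irak2, Irak1, Irak4, Ticam1, Tirap, Sigirr, Irak3, Traf6 and Ticam2. Neighbours in the order overlapped in range between Myd88 and Irak2 and between Ticam2 and Irak3 under the knockout label, and between Irak2 and Irak1 and between Irak3 and Traf6 in the controls. Traf6 thus ranked 5 under the knockout label and 9 in the controls, and Sigirr ranked 10 under the knockout label and 7 in the controls. Of the summed TPM of the 10 genes, Myd88 took 22.1% under the knockout label and 27.1% in the controls, Traf6 took 8.30% and 4.44%, and Sigirr 0.610% and 5.59%.

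The TPM ratio of one gene to another within a library shows which transcripts kept their proportion. Tirap to Myd88 was 0.254 ± 0.00446 in the libraries labelled knockout and 0.249 ± 0.0264 in the controls, and Ticam1 to Myd88 was 0.294 ± 0.0165 and 0.292 ± 0.0156 (SD, n = 3 each). Both of these overlapped between groups, so the 3 adaptors that fell did so in near-constant proportion. Ticam2 to Ticam1, the proportion of the bridging adaptor to the adaptor it serves, was 0.673, 0.726 and 0.665 under the knockout label and 0.279, 0.246 and 0.331 in the controls, apart by 2.41-fold on the means. Traf6 to Myd88 was 0.363, 0.378 and 0.388 under the knockout label and 0.160, 0.167 and 0.165 in the controls, apart by 2.30-fold. Irak2 to Irak1 was 1.33 to 1.45 under the knockout label and 0.975 to 1.13 in the controls, without overlap, whereas Irak3 to Irak4 overlapped (0.344 to 0.388 and 0.386 to 0.426). Sigirr to Myd88 was 0.0264, 0.0267 and 0.0299 under the knockout label and 0.211, 0.185 and 0.223 in the controls. The 4 adaptors summed to 57.6 ± 1.17 TPM under the knockout label and 72.1 ± 1.33 TPM in the controls, whereas the 4 IRAK genes summed to 78.4 ± 3.14 and 75.3 ± 1.88 TPM and overlapped. Ratios and sums are given as descriptions, with no test; the exact permutation test of a single value, 3 against 3 libraries, cannot give a p below 0.1.

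**Figure D3:**
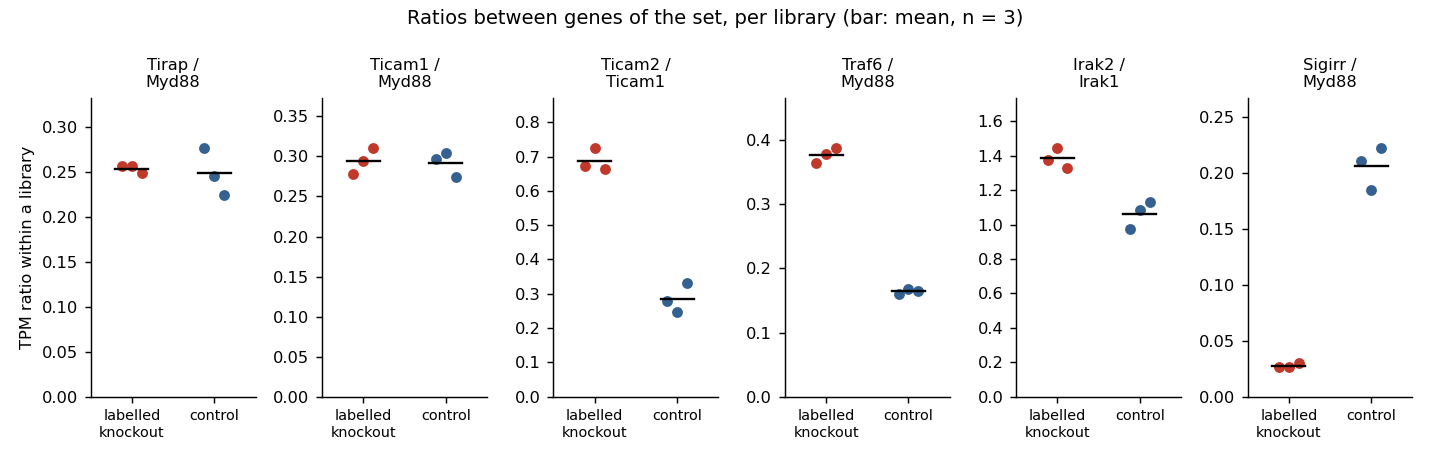
Ratio of the TPM of 2 genes within each library (vertical axis, from 0), libraries labelled knockout left and controls right, with the mean as a bar. The ratios of Tirap and of Ticam1 to Myd88 overlap between groups, while those of Ticam2 to Ticam1 and of Traf6 to Myd88 are higher, and that of Sigirr to Myd88 lower, in all 3 libraries labelled knockout.

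The genes beside the 8 called members mostly did not pass. Of their 16 nearest neighbours, 12 were tested and 1 passed, Fem1c beside Ticam2, which rose to 15.2 ± 0.166 TPM in the libraries labelled knockout, against 13.3 ± 0.782 TPM in the controls (log2 fold change 0.18, limma adjusted p = 0.0180). The 11 that did not pass (Oxsr1 and Acaa1a beside Myd88, Vhl and Tatdn2 beside Irak2, Helb and Tmbim4 beside Irak3, Fem1a and Plin3 beside Ticam1, Tmed7 beside Ticam2, Dcps and Foxred1 beside Tirap) had log2 fold changes from −0.10 to 0.12. The 4 that were not tested (Rag1 and Prr5l beside Traf6, Pkp3 and Ano9 beside Sigirr) did not exceed 0.129 TPM in any library. In a window of 500 kb on either side, chosen after values were seen, all 3 genes tested around Traf6 rose (B230118H07Rik, Commd9 and Ldlrad3, log2 fold changes 0.18, 0.41 and 1.05, the last above Traf6 itself). Around Ticam2 5 of 9 tested genes rose and 1 fell, with a median of 0.18. Around Irak2, which rose, 1 of 20 rose and 4 fell, and around Ticam1, which fell, 11 of 31 rose and 7 fell. Around Myd88 1 of 9 rose and 2 fell, around Tirap 0 of 10 rose and 3 fell, and around Irak3 1 of 4 rose and 0 fell. Around Irak1 and Irak4, which were not called, 5 of 31 rose and 14 fell, and 0 of 2 rose and 1 fell. Over all genes tested 26.7% rose and 23.4% fell. As the deposited transcripts are drawn, Irak1 with its microRNA genes was the only one of the 10 to overlap another listed gene. The full gene spans of GENCODE M21 overlap more: on the opposite strand Myd88 with Acaa1a, Irak3 with Tmbim4, Irak4 with Twf1 and Tirap with Srpr, and on the same strand Ticam2 with Tmed7 and Myd88 with Slc22a14, which was listed at 0 in every library. The library kit does not mark strand, so reads in these overlaps cannot be told apart, and the values of these members are uncertain to that extent.

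Sigirr fell on a chromosome whose genes were mostly higher. Of 878 genes tested on chromosome 7, 520 rose and 73 fell in limma, with a median log2 fold change of 0.24, and Sigirr was the second lowest of them, after Prkcb (−2.43). With the chromosome 7 shift removed, Sigirr stood at −2.65. Within 500 kb of Sigirr, a window chosen after its values were seen, 12 of 31 other tested genes rose and 2 fell, with a median of 0.09. The 2 that fell were Irf7, a transcription factor of the interferon response 166 kb away by transcript start (4.17 ± 0.0812 and 13.0 ± 1.11 TPM, log2 fold change −1.43, limma adjusted p = 3.46e-07), and Cd151, a tetraspanin (log2 fold change −0.17). The nearest tested gene, the phosphatidylserine synthase Ptdss2, rose (14.2 ± 0.527 and 10.8 ± 0.380 TPM, log2 fold change 0.37). Of the 4 tested Ifitm genes on the other side of Sigirr, Ifitm6 rose (58.6 ± 5.16 and 41.3 ± 4.37 TPM, log2 fold change 0.49) and Ifitm2, Ifitm3 and Ifitm5 did not pass (log2 fold changes −0.05, 0.09 and −0.22), values that are uncertain for close paralogs that may share reads.

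**Figure D4:**
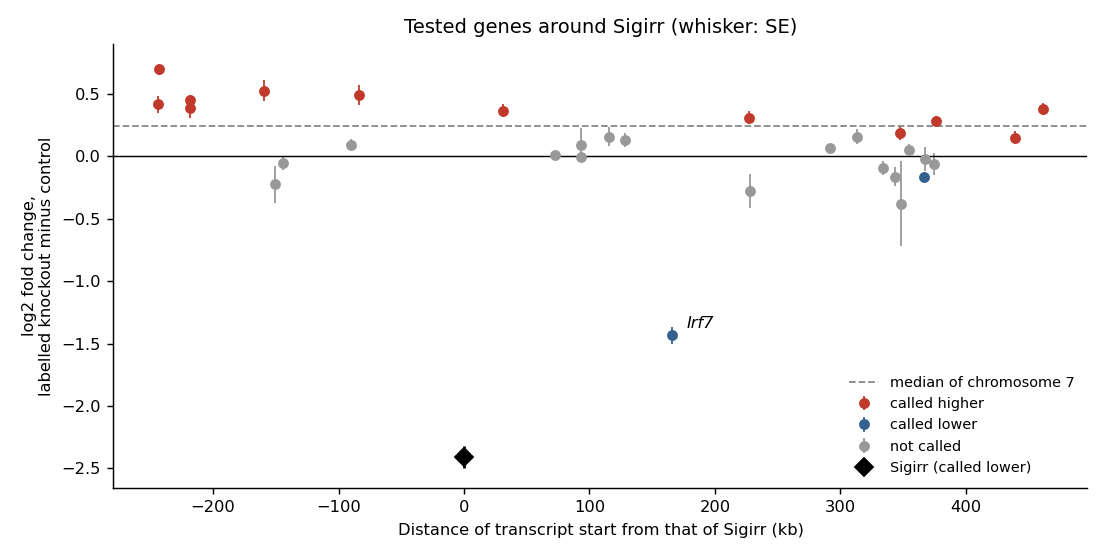
log2 fold change with SE (vertical axis, labelled knockout minus control) of Sigirr and the 31 other tested genes within 500 kb of it against the distance of their transcript start (horizontal axis, kb). Sigirr at −2.41 and Irf7 at −1.43 lie below the other genes, and the dashed line marks the chromosome 7 median of 0.24.

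The tested genes whose profile over the 6 libraries lay closest to Sigirr, by Euclidean distance between mean-centred log2(TPM + 1) values among genes averaging 5 TPM or more in either group, were Klf2 (distance 0.129), Tgfbi (0.220), Cd84 (0.292), Vat1 (0.464) and Ctsh (0.468). With 2 groups of 3 close replicates, this distance mostly follows the size of the fold change. Counted from the lowest log2 fold change of all genes tested, the 5 ranked 8, 5, 4, 12 and 2 in that order, and Sigirr 7. Ctsh rested on 9, 11 and 13 recovered reads in the libraries labelled knockout. It lay under 1 TPM in each and passed the filter on low values through the controls alone. None of the 5 lies on chromosome 7. Klf2, a Krüppel-like factor, measured 3.74 ± 0.441 TPM under the knockout label and 23.6 ± 2.09 TPM in the controls.

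RefSeq promoter windows (GRCm38.p6, 250 bases before to 50 after the transcript start) were used for 8 of the 10 genes. Ticam2 and Sigirr were not part of this search, so it says nothing about motifs in their promoters. The windows of the 8 genes were searched on both strands for the 2 D-box forms TTATGTAA and TTACGTAA, which E4BP4 binds. None of the 8 genes held either in their 11 windows, against 0.938% and 0.119% of 32851 promoter windows. At shares this low the absence of a match in 11 windows says little. With the middle base left free (TTANGTAA, which includes both), Tirap held 1 match, against 2.32% of all windows. Myd88 held the interferon response element, found in 3.44% of all windows, from position −40 to −31 before the transcript start. The NF-κB motif, the cyclic AMP element TGACGTCA and the ATF4-type composite TTGCATCA, found in 1.63%, 1.79% and 0.895% of windows, were in none of the 8. The 2 stretches that held a match, both in genes that fell, are shown with the motif in capitals, each on the gene's own minus strand of chromosome 9 (chr9:35200189-35200215 for Tirap, chr9:119340033-119340074 for Myd88).
Tirap: accTTACTTAAggggatgaaagtctca
Myd88: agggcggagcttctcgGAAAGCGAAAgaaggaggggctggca
The Tirap window belongs to a RefSeq transcript that starts upstream of the one in the deposited table. In Tirap the capitals read as the free-base D-box on the opposite strand, from position −247 to −240. A match of letters is a description, not a binding site, and the data hold no binding measurement.

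Around the 10 genes, the receptors moved both ways. Of 22 receptors and co-receptors 17 were tested, and 4 rose and 8 fell, with a median log2 fold change of −0.11. Among all genes tested 26.7% rose and 23.4% fell, with a median of 0.02. Tlr2, which senses lipoproteins, rose to 74.5 ± 2.60 TPM in the libraries labelled knockout, against 33.7 ± 0.695 TPM in the controls, and Tlr4, the lipopolysaccharide receptor that uses all 4 adaptors, rose to 40.9 ± 1.44 TPM, against 26.6 ± 1.68 TPM. Tlr13, a sensor of bacterial ribosomal RNA, fell to 54.8 ± 2.77 TPM, against 118.3 ± 3.87 TPM in the controls, and Il18rap, a subunit of the interleukin-18 receptor, fell by 0.90 on the log2 scale.

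Downstream kinases and ubiquitin enzymes had a median near that of all genes. Of 23 listed, 21 were tested, and 6 rose, 4 fell and 11 did not pass, with a median log2 fold change of 0.05. The shares of all genes tested that rose and fell were 26.7% and 23.4%. Tank, a scaffold of the kinase Tbk1, rose to 105.0 ± 2.13 TPM in the libraries labelled knockout, against 62.8 ± 2.43 TPM in the controls, and Irf3, the factor activated through Ticam1, rose by 0.36 on the log2 scale. Irf3 lies on chromosome 7, and its value was 0.12 above the median of that chromosome's tested genes. Irf5, a factor that binds Myd88 and Traf6, fell to 83.0 ± 5.35 TPM, against 133.3 ± 5.20 TPM in the controls, and Ikbke, a kinase of interferon induction, fell by 0.63 on the log2 scale. Of the direct partners of Traf6, Map3k7 (TAK1) had a log2 fold change of 0.18 (limma adjusted p = 0.0210) and Tab2 one of −0.16 (adjusted p = 0.0270), and Tab1 and Tab3 did not pass.

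Other inhibitors of the chain split as well. Of 17 listed, 15 were tested, and 6 rose, 4 fell and 5 did not pass, with a median of 0.04. Here too the shares of all genes tested were 26.7% upward and 23.4% downward. Il1rn, the interleukin-1 receptor antagonist, and Dusp1, a phosphatase of MAP kinases, rose by 1.66 and 0.81 on the log2 scale, and Tollip, which binds IRAK proteins, rose by 0.47, which is 0.23 above the median of its chromosome, also chromosome 7. The decoy receptor Il1r2 fell to 2.63 ± 0.385 TPM in the libraries labelled knockout, against 5.92 ± 0.906 TPM in the controls, and Trafd1, a feedback inhibitor, fell by 0.59 on the log2 scale. Sigirr and Irak3 therefore fell beside inhibitors that rose and others that fell.

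Of 19 listed output genes of the pathway 12 were tested, and of those 8 rose, 3 fell and 1 did not pass, where 26.7% of all genes tested rose and 23.4% fell. Their median log2 fold change was 0.80, against 0.02 over all genes tested. Egr1, which rose, measured 3.35 ± 0.227 TPM under the knockout label and 0.538 ± 0.0748 TPM in the controls. Il10, which fell, measured 0.320 ± 0.113 TPM and 2.13 ± 0.680 TPM. Both passed the filter on low values through their higher group alone, so the counts and the median follow partly from that filter. Cxcl2 rose by 2.75 on the log2 scale and Il1rn, which is also counted among the inhibitors, by 1.66, whereas Ccl5 fell by 1.58. Ccl5 rested on few recovered reads, 7, 8 and 13 under the knockout label and 45, 48 and 30 in the controls. The 7 that were not tested, for reaching 1 TPM in fewer than 3 libraries, were Il1a, Il1b, Il6, Il12b, Ifnb1, Nos2 and Saa3. These lists were compared by counts and medians, with no test of a list.

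**Figure D5:**
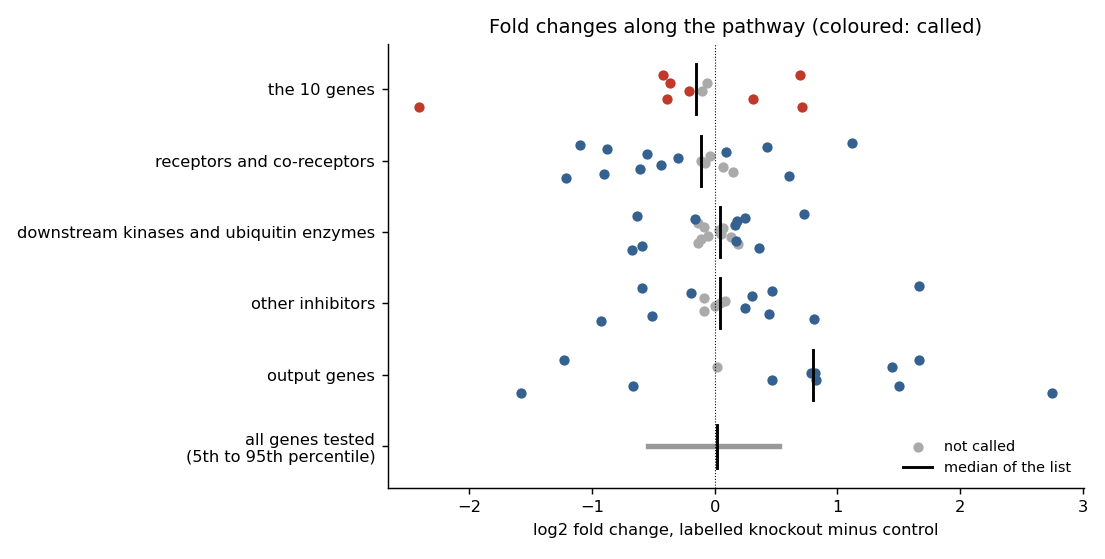
log2 fold change (horizontal axis, labelled knockout minus control) of each tested gene by list, coloured where limma called it and grey where it did not, with the list median as a bar and the 5th to 95th percentile range of all genes tested at the bottom. The 10 genes have a median of −0.15 and the output genes one of 0.80.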

How the data were processed

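Polyadenylated RNA was sequenced from untreated cells for 6 libraries, 3 labelled E4BP4 knockout and 3 labelled control, per the labels' protocols. Tools listed without role or order in the submitters' processing notes are STAR 2.7.5a, bcl2fastq, DESeq2 and HOMER 4.11.1, with the build mm10. The authors deposited TPM values per gene, with 1 transcript and its length for each, and a second table with stabilized log2 values per library, a log2 fold change and p-values of their own comparison, headed WT vs. TG, read here as control and knockout. The transform, the treatment of reads shared between paralogs and the use of strand are not given in the sources used here.

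Raw counts were not used here; limma 3.58.1 in R 4.3.3 was run across all genes on log2(TPM + 1) with a mean-variance trend (at least 1 TPM in at least 3 of 6 libraries, no covariates, two-sided p-values adjusted by Benjamini-Hochberg, threshold 0.05), as the stated design foresaw. Fold changes are labelled knockout minus control. TPM multiplied by length gave whole reads per library (100% of the low values checked within 0.1 of a whole number), used for depth and for limma-voom with TMM scaling. Replicates differed by 1.83 to 6.09 in chi-square per degree of freedom. Control replicate 1 gave 6.09 against replicate 2 and 4.415 against replicate 3, while control replicates 2 and 3 gave 2.261. All 6 libraries were kept. The fit was tested on simulated data. Gene structure came from GENCODE M21 and promoters from RefSeq. Named genes were the 10 members, Nfil3, up to 2 highest and 2 lowest called genes with a mean of at least 5 TPM per list, neighbours, and the 5 profiles closest to Sigirr; Irf7, Cd151, Ptdss2, the Ifitm genes, the genes around Traf6, Prkcb, Map3k7, Tab1, Tab2, Tab3, Tollip and the markers, and the ratios and motifs, were chosen with values known. The members and lists were chosen with earlier results of these data known.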

Additional observations from a re-analysis of the deposited data

How the results depend on the processing

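Of 140 fold changes of the 10 genes under 14 alternative settings, 0 changed sign, 136 kept their side of the threshold, 3 lost the call (all of Irak3) and 1 gained it (Irak4 with upper-quartile scaling, log2 fold change −0.12). Between 7 and 9 of the 10 genes were called under every setting, and 4740 to 6190 of all genes. The size of the Sigirr change depended most on the scale, from −3.31 with limma-voom on recovered reads to −1.13 on the deposited stabilized values; leaving out each library in turn gave −2.47 to −2.34. The replicate numbers of the labels did not pair the libraries: deviations of same-numbered libraries correlated at −0.058 to 0.003. With a replicate block 5297 genes and 8 of the 10 were called. Depth limits Sigirr most, with 22 to 26 reads under the knockout label.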
